A study of Arabis alpina with 18 samples.

Results

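The change of the shoot apex between 3 and 5 weeks of growth was measured in the pep1-1 mutant of Arabis alpina, a perennial relative of Arabidopsis. The 6 libraries analysed were all those labelled as pep1-1 shoot apices, out of 18 libraries in the study: 3 from dissected apices of plants 5 weeks old and 3 from dissected apices of plants 3 weeks old. All plants were of the accession Pajares and grew in long days. Both ages carry the same pep1-1 mutation, so the age comparison holds no plant with a functional PEP1 gene. The other apex libraries, 3 at 5 weeks and 3 at 3 weeks, came from a mutant called eop055, with a lesion that the labels do not describe. They were used only where the age change was set beside that of pep1-1. The remaining 6 libraries, from the fifth and sixth leaf at 5 weeks of each genotype, entered the fit and the definition of leaf-rich genes. The labels do not say whether replicates were separate plants or pools, so each p-value reflects differences among the few replicate libraries in the fit, and these may be technical in part.

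PEP1 is the A. alpina ortholog of FLC, the Arabidopsis repressor that holds back flowering until a plant has passed a winter, and Pajares plants that lack it flower without cold. In Arabidopsis the apex also acquires the capacity to flower with age, because the microRNA miR156 declines and its targets, the SPL transcription factors, rise. SPL proteins, the florigen partner FD and other factors then act on genes such as LFY and AP1, which give new primordia the identity of flowers. The study as a whole is about TOE2, an AP2-like repressor, and its role in flowering. The levels of PEP1 and TOE2 were not analysed here.

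Gene counts summed to 7987096 to 12816318 per library at 5 weeks and 11309240 to 14132723 at 3 weeks. Reads outside genes took 13.7 to 16.6% at 5 weeks and 10.6 to 11.1% at 3 weeks, and in eop055 they took 14 to 14.7% at 5 weeks and 11.1 to 11.8% at 3 weeks. The part of this difference in the results was not tested. The first principal component of the 6 libraries held 64.2% of the variance and separated the ages, with scores of -46.4 to -34.9 at 5 weeks and 40.0 to 42.8 at 3 weeks. The second held 11.7% and separated replicate 2 at 5 weeks (-32.2) from replicate 3 at 5 weeks (29.0), while the 3-week libraries lay between -1.26 and 2.45. Levels are given in CPM, the read count of a gene scaled to a common library size by the TMM method. Because CPM is not corrected for gene length, levels are compared between libraries and not between genes.

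Of 21275 genes tested, 8285 (38.9%) changed between the ages at a Benjamini-Hochberg adjusted p under 0.05 in edgeR's quasi-likelihood test. At 5 weeks 3971 genes (18.7%) were higher and 4314 (20.3%) were lower, a balance that turned to 4419 higher and 3896 lower with upper quartile scaling. Most changes were small: the median size among called genes was 0.53 on the log2 scale, and 1587 genes (7.46%) were also at least 2-fold apart, 699 higher (3.29%) and 888 lower (4.17%). The 3 libraries of one age lay wholly above or below the 3 of the other for 11100 genes (52.2%).

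**Figure D1:**
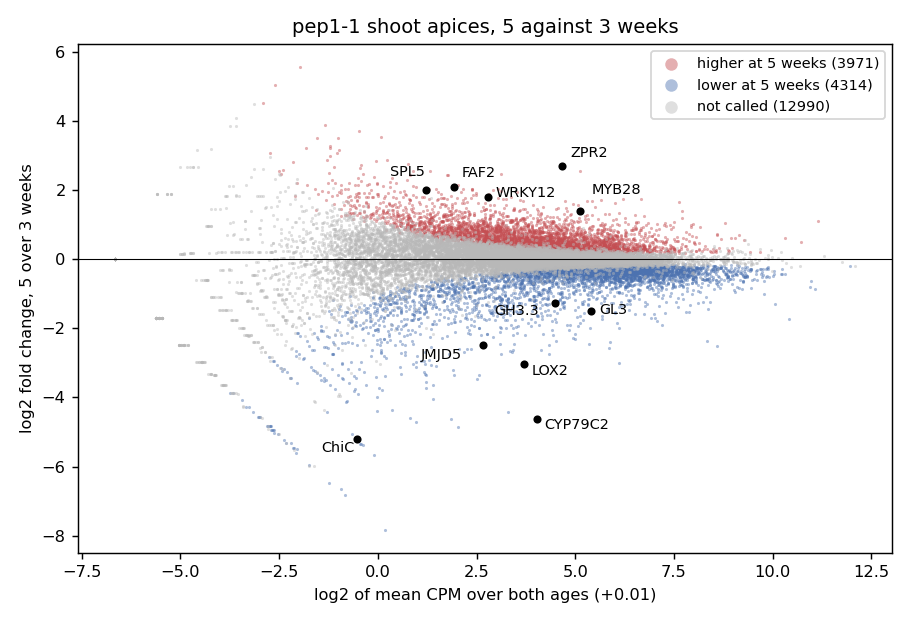
Each point is 1 of 21275 genes, with the log2 of its mean CPM over both ages (plus 0.01) on the horizontal axis and its log2 fold change, 5 over 3 weeks, on the vertical axis. The 3971 genes higher at 5 weeks and the 4314 lower at 5 weeks lie on both sides of 0 across the range of levels, and the black points mark named genes such as ZPR2 (2.70) and CYP79C2 (-4.62).

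Names are those of the Arabidopsis loci that the authors paired with A. alpina genes in their deposited lists, and the roles given are those known in Arabidopsis. Of 1816 listed genes 1401 had a locus, and 1381 named genes were tested. Those lists were made of genes that differed between pep1-1 and eop055, partly in these libraries, so a named gene is more likely than others to differ between genotypes, and its direction is not independent evidence. Among named genes 448 (32.4%) changed with age, 168 higher (12.2%) and 280 lower (20.3%). The age change itself differed between the genotypes for 386 named genes (28%), against 2265 of all genes (10.6%), of which 1310 (6.16%) had the higher change in pep1-1 and 955 (4.49%) the lower. Of 472 genes in the 27 lists counted here, 137 were named and tested, and the median change was 0.01 over all genes and -0.15 over the named ones.

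Among named genes that averaged at least 5 CPM at the higher age and did not overlap, the largest rise was that of a little zipper gene. ZPR2 (Aa_G48790h1) codes for a small leucine-zipper protein that binds class III homeodomain factors and limits their activity in the shoot apex. It stood at 42.8, 44.5 and 45.1 CPM at 5 weeks, against 8.99, 6.08 and 5.43 CPM at 3 weeks. Every 5-week library lay far above every 3-week library, 6.51-fold on average, and the log2 change was 2.70 ± 0.16 (± SE, n = 3 each, edgeR adjusted p = 2.29e-11). Its paralog ZPR1 (Aa_G16220h1) stood at 9.22, 8.71 and 8.92 CPM at 5 weeks and 5.07, 3.38 and 5.49 CPM at 3 weeks, again without overlap and with a smaller change of 0.94 ± 0.19 (edgeR adjusted p = 0.000413). In eop055 the same contrast gave 0.50 for ZPR2 and -0.59 for ZPR1, and the test of the difference called both (edgeR adjusted p = 6.95e-07 and 0.000805). ZPR2 averaged 0.07 CPM in pep1-1 leaves, so its reads came almost wholly from apex libraries.

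FAF2 (Aa_G358030h1), of the FAF family that affects the size of the shoot meristem, stood at 7.76, 3.76 and 6.74 CPM at 5 weeks and 1.15, 1.66 and 1.54 CPM at 3 weeks. The change was 2.08 ± 0.31 (edgeR adjusted p = 1.93e-05), and lack of overlap was a condition for the largest rises, FAF2 among them. Its relative FAF4 averaged 5.78 CPM at 5 weeks and 5.85 CPM at 3 weeks, with overlapping libraries. Of the 6 tested members of the meristem and boundary list, 3 rose, 0 fell and 3 were not called, with a median change of 0.83, where 12.2% of named genes and 18.7% of all genes rose. The boundary gene LOB and the axillary meristem regulator RAX1 gave -0.29 and 0.72 and were among those not called. None of the defining stem cell and meristem markers, such as STM and CLV3, was among the named genes.

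SPL genes changed in both directions. Of 5 tested members 4 rose and 1 fell, against 12.2% and 20.3% of all named genes, and the median change was 0.62. SPL5 (Aa_G1050h1), a direct target of miR156, stood at 3.75, 5.25 and 2.1 CPM at 5 weeks and 0.77, 0.97 and 0.99 CPM at 3 weeks. Every 5-week library was above every 3-week library, and the change was 1.99 ± 0.35 (edgeR adjusted p = 0.000185). SPL4, its close paralog, rested on 34 counts over the 5-week libraries and 12 over the 3-week libraries and changed by 1.69 ± 0.52 (edgeR adjusted p = 0.0132). That call was lost when any of 3 libraries was left out, with an adjusted p of up to 0.106, and the change was 2.56 without replicate 3 at 3 weeks.

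SPL9 (Aa_G230760h1), which promotes adult leaf traits and flowering, stood at 37.8, 41.2 and 36.7 CPM at 5 weeks and 26.8, 29.8 and 21.4 CPM at 3 weeks, and SPL10 (Aa_G61880h1) at 14.9, 14.4 and 14 CPM at 5 weeks and 10.3, 9.60 and 8.33 CPM at 3 weeks. Both rose without overlap, by 0.57 ± 0.12 and 0.62 ± 0.15 on the log2 scale (edgeR adjusted p = 0.000534 and 0.00194). Lack of overlap, in either direction, was seen in 52.2% of all genes. SPL8 (Aa_G106150h1), a family member that miR156 does not target and that acts in anther development, went the other way. It stood at 12.1, 12.4 and 8.92 CPM at 5 weeks, all below the 19.4, 19.8 and 20.2 CPM at 3 weeks, a change of -0.83 ± 0.13 (edgeR adjusted p = 1.63e-05). In eop055 SPL8 rose by 1.69, and the difference of -2.52 ± 0.17 had the smallest adjusted p of all named differences (edgeR adjusted p = 3.82e-09).

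Of 7 tested genes listed as flowering promoters or floral meristem genes, 4 rose (FD, SPL4, SPL5 and SPL9), 0 fell and 3 were not called, with a median change of 0.57, beside 12.2% of named genes and 18.7% of all genes that rose. SPL4, SPL5 and SPL9 are also counted in the SPL list. FD (Aa_G514710h1), the bZIP partner of florigen, stood at 10.8, 10.2 and 8.22 CPM at 5 weeks and 7.07, 6.35 and 5.30 CPM at 3 weeks. The libraries did not overlap, and the change was 0.65 ± 0.17 (edgeR adjusted p = 0.00458). LFY (Aa_G61540h1), which gives primordia floral identity, stood at 3.56, 3.27 and 3.32 CPM at 5 weeks and 6.22, 5.53 and 4.19 CPM at 3 weeks. All its 5-week values were below the 3-week values, yet the change of -0.64 ± 0.27 missed the threshold (edgeR adjusted p = 0.0711). It was called lower when replicate 3 at 3 weeks was left out or when only these 6 libraries were fitted (lowest adjusted p 0.0187). AP1, which acts with LFY, had 1 count over the 5-week libraries and 1 over the 3-week libraries.

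Most floral organ genes were near the limit of detection. Of 8 tested members 1 rose, 2 fell and 5 were not called, close to the shares of named genes (12.2% higher and 20.3% lower), and the median change was -1.17, mostly from genes with a handful of reads. The 2 that fell were CRC and SPL8, and SPL8 is also counted in the SPL list. PI had 1 count at 5 weeks and 4 at 3 weeks, which gives a ratio of 0.293 (95% interval 0.00596 to 2.96). SEP1 and REM22 had 0 counts at 5 weeks and 1 count each at 3 weeks. SEP4 had 2 counts at 5 weeks and 10 at 3 weeks, or a ratio of 0.235 (0.0250 to 1.1). These intervals are exact (Clopper-Pearson) and cover counting error only. CRC (Aa_G690520h1), a regulator of carpel and nectary development, stood at 2.29, 2.28 and 3.59 CPM at 5 weeks and 5.46, 6.01 and 3.64 CPM at 3 weeks, a change of -0.89 ± 0.26 (edgeR adjusted p = 0.00980). Its highest 5-week and lowest 3-week libraries nearly touched, and the call was lost without replicate 1 at 5 weeks or replicate 2 at 3 weeks. AGL6, with 13 counts at 5 weeks and 4 at 3 weeks, passed narrowly (1.82 ± 0.69, edgeR adjusted p = 0.0404) and lost its call in 8 of 13 alternatives, among them the omission of each library but replicate 1 at 3 weeks.

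Both TEMPRANILLO genes, repressors of the florigen gene FT, were lower at 5 weeks. TEM2 (Aa_G304200h1) stood at 3.24, 6.63 and 3.59 CPM at 5 weeks and 11.5, 15.0 and 11.9 CPM at 3 weeks, and TEM1 (Aa_G596330h1) at 9.54, 11.6 and 7.79 CPM at 5 weeks and 15.4, 17.8 and 12.8 CPM at 3 weeks. Neither overlapped, as for 52.2% of all genes, and the changes were -1.56 ± 0.45 and -0.68 ± 0.24 (edgeR adjusted p = 0.0146 and 0.0386). The TEM2 call was lost without replicate 1 or replicate 3 at 5 weeks (adjusted p up to 0.0644) and the TEM1 call when any of 4 libraries was left out (up to 0.143). AGL15, the third repressor tested, stood at 4.83, 3.96 and 3.85 CPM at 5 weeks and 2.54, 2.90 and 3.58 CPM at 3 weeks and was not called (0.49, edgeR adjusted p = 0.153). In eop055 TEM2 and TEM1 changed by -1.90 and -1.36, and the test called no difference from pep1-1 (0.34 ± 0.65 and 0.68 ± 0.35, edgeR adjusted p = 0.823 and 0.262).

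**Figure D2:**
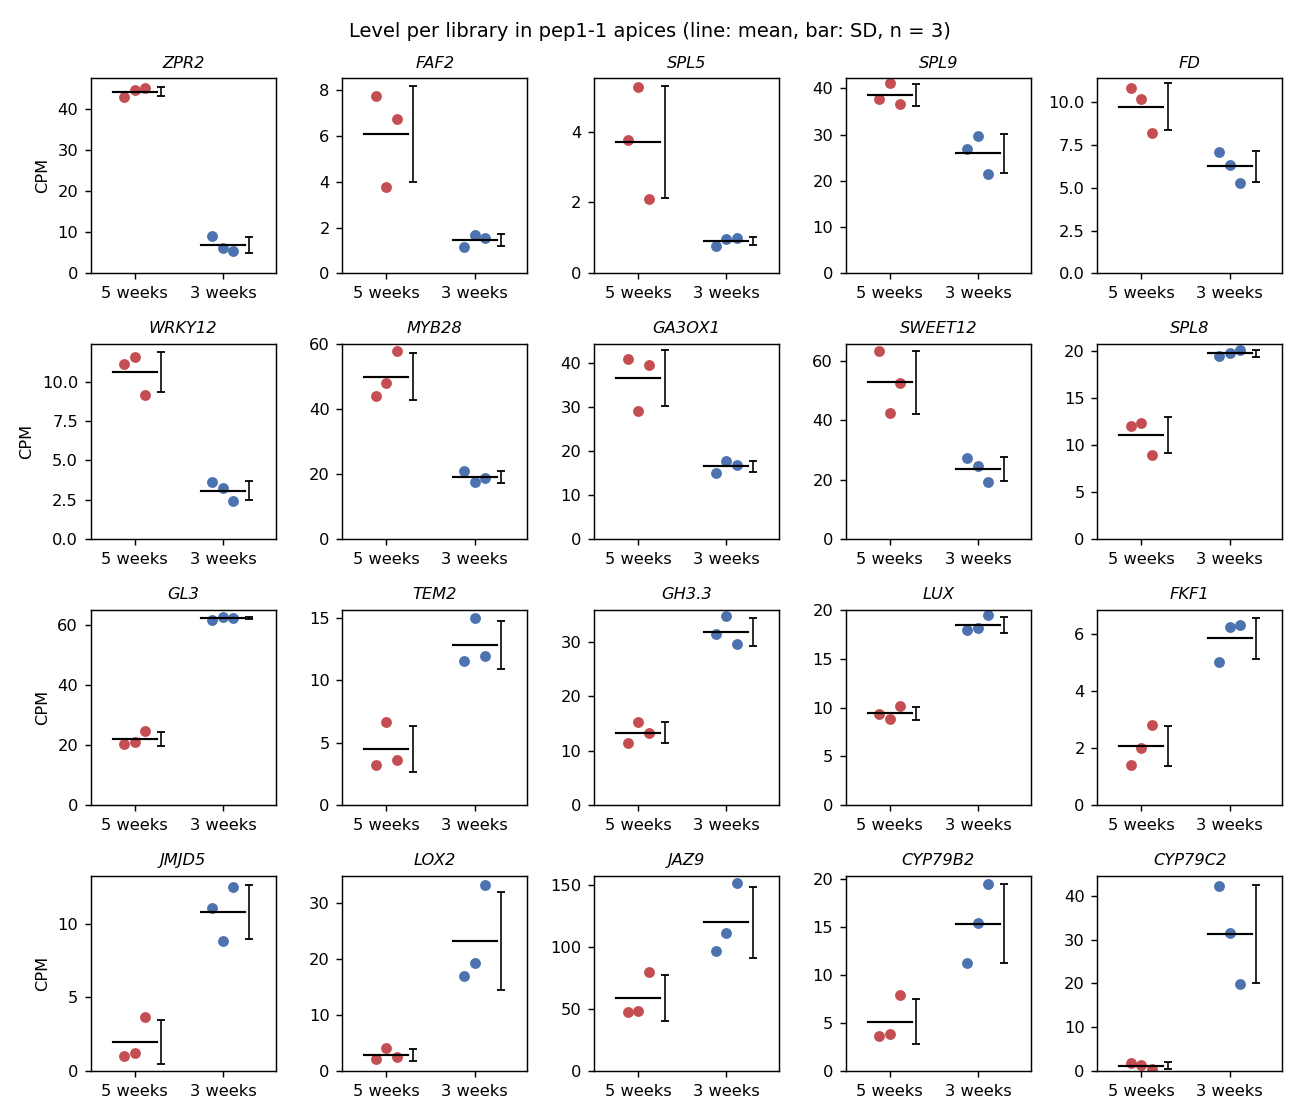
Points are the levels in CPM of 20 genes in each of the 3 libraries at 5 weeks (left, red) and the 3 at 3 weeks (right, blue), with the mean as a line and the SD as a bar, and every vertical axis starts at 0. ZPR2 stands near 44 CPM in the 5-week libraries and near 7 CPM in the 3-week libraries, whereas SPL8, GL3 and LUX show the reverse order with no overlap.

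Other named rises included regulators and enzymes without a place in the flowering lists. WRKY12 (Aa_G252340h1), which in Arabidopsis promotes flowering and holds back wall thickening in the pith, stood at 11.1, 11.6 and 9.19 CPM at 5 weeks and 3.61, 3.25 and 2.41 CPM at 3 weeks. The groups lay 3.46-fold apart, a change of 1.79 ± 0.20 (edgeR adjusted p = 5.92e-07), whereas in eop055 WRKY12 gave -0.16 and the difference was called (edgeR adjusted p = 0.0001). Lack of overlap was a condition for the 12 largest rises, WRKY12 among them. The RAD-like gene RL4, the NAC factor NAC085 and the kinase gene IRE rose by 1.75, 1.76 and 1.58. Among genes known by locus only, AT3G59270, AT4G22460, AT3G53830, AT5G43910, AT4G39830 and AT2G21560 rose by 1.61 to 2.43. These 12 largest rises, ZPR2 and FAF2 included, were called in every alternative tried, with the value for AT4G22460 reaching 2.72 without replicate 3 at 3 weeks. Of genes with no locus that met the same minimum, Aa_G277510h1 and Aa_G688870h1 rose most, by 2.55 and 2.46.

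The 12 largest named falls, chosen above the 5 CPM minimum and for lack of overlap, came from genes of several kinds. LOX2, ST2A and JMJD5, described with their groups below, were also among the 12. LOX2 and JMJD5 were chosen for the size of their difference between genotypes as well. CYP79C2 (Aa_G67080h1), of the P450 family that turns amino acids into aldoximes, stood at 1.91, 1.29 and 0.35 CPM at 5 weeks and 42.3, 31.6 and 19.8 CPM at 3 weeks. Even the lowest 3-week library lay far above the highest 5-week one, and the change was -4.62 ± 0.50 (edgeR adjusted p = 1.26e-05), -5.27 without replicate 1 at 5 weeks. PR4, a pathogenesis-related chitin-binding protein, stood at 2.78 ± 0.25 CPM at 5 weeks and 18.3 ± 5.06 CPM at 3 weeks (SD, n = 3 each), and the glutathione transferase GSTF3 at 5.30 ± 1.01 CPM at 5 weeks and 35 ± 7.65 CPM at 3 weeks. IAA14, a repressor of auxin response, stood at 1.48 ± 0.27 CPM at 5 weeks and 8.79 ± 2.75 CPM at 3 weeks. All 3 fell, by 2.70, 2.74 and 2.60 on the log2 scale.

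The nitrate transporter gene NRT2.3, the purine permease PUP17, the berberine-bridge-like oxidase ATBBE16 and the locus AT1G12570 fell by 2.48, 2.22, 2.29 and 2.20. DRM2, a dormancy-associated gene, stood at 3.18, 4.16 and 2.89 CPM at 5 weeks and 12.3, 10.01 and 32.6 CPM at 3 weeks. It fell by 2.45, a value that leaned on 1 library, and fell by 1.71 without replicate 3 at 3 weeks. Of genes with no locus that met that minimum, Aa_G350700h1 and Aa_G593160h1 fell most, with changes of -4.85 and -4.64 that became -7.12 and -6.06 without replicate 1 at 5 weeks.

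Clock and photoperiod genes changed in both directions, with morning-phased members among those that rose and evening-phased members among those that fell. Of 10 tested members 3 rose, 5 fell and 2 were not called, with a median change of -1.01, where 12.2% of named genes were higher and 20.3% lower. LHY (Aa_G211810h1), a MYB factor of the morning, stood at 20.04, 17.2 and 18.5 CPM at 5 weeks and 11.6, 8.22 and 8.33 CPM at 3 weeks. Its partner CCA1 stood at 1.97, 2.57 and 1.92 CPM at 5 weeks and 1.31, 1.38 and 0.80 CPM at 3 weeks. Neither overlapped, as for 52.2% of all genes. The changes were 1.00 ± 0.15 and 0.89 ± 0.26 (edgeR adjusted p = 2.86e-05 and 0.00937), and the CCA1 call was lost without replicate 3 at 3 weeks (0.0667). COL1, a CONSTANS-like gene, rose by 0.70 and lost its call in 3 alternatives.

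LUX (Aa_G656930h1) and ELF4 (Aa_G224250h1), which form the evening complex with ELF3, were lower at 5 weeks. LUX stood at 9.35, 8.81 and 10.1 CPM at 5 weeks and 17.98, 18.17 and 19.5 CPM at 3 weeks, and ELF4 at 0.32, 0.79 and 1.14 CPM at 5 weeks and 2.77, 2.97 and 3.45 CPM at 3 weeks. FKF1, a blue-light receptor that times CONSTANS activity, stood at 1.40, 1.98 and 2.80 CPM at 5 weeks and 5.00, 6.22 and 6.29 CPM at 3 weeks. None of the 3 overlapped, a trait of 52.2% of all genes in either direction, and they fell by 0.97, 2.09 and 1.53 on the log2 scale. JMJD5 (Aa_G133240h1), a Jumonji-domain protein of the clock, stood at 1.02, 1.19 and 3.67 CPM at 5 weeks and 11.1, 8.84 and 12.5 CPM at 3 weeks and fell by 2.49 ± 0.47 (edgeR adjusted p = 0.000639), or by 3.3 without replicate 3 at 5 weeks.

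COR28, a cold-induced clock repressor, fell by 1.25, while PRR5 (0.05) and BOA (-1.04, edgeR adjusted p = 0.0630) were not called. In eop055 the same contrast gave 0.17 for LHY, 0.16 for LUX, 0.28 for ELF4, 1.04 for FKF1, 0.63 for COR28 and 1.89 for JMJD5. The difference from pep1-1 was called for those 6 of the 10 genes, against 28% of named genes and 10.6% of all genes. The sources used here do not give the hour at which each group was harvested.

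**Figure D3:**
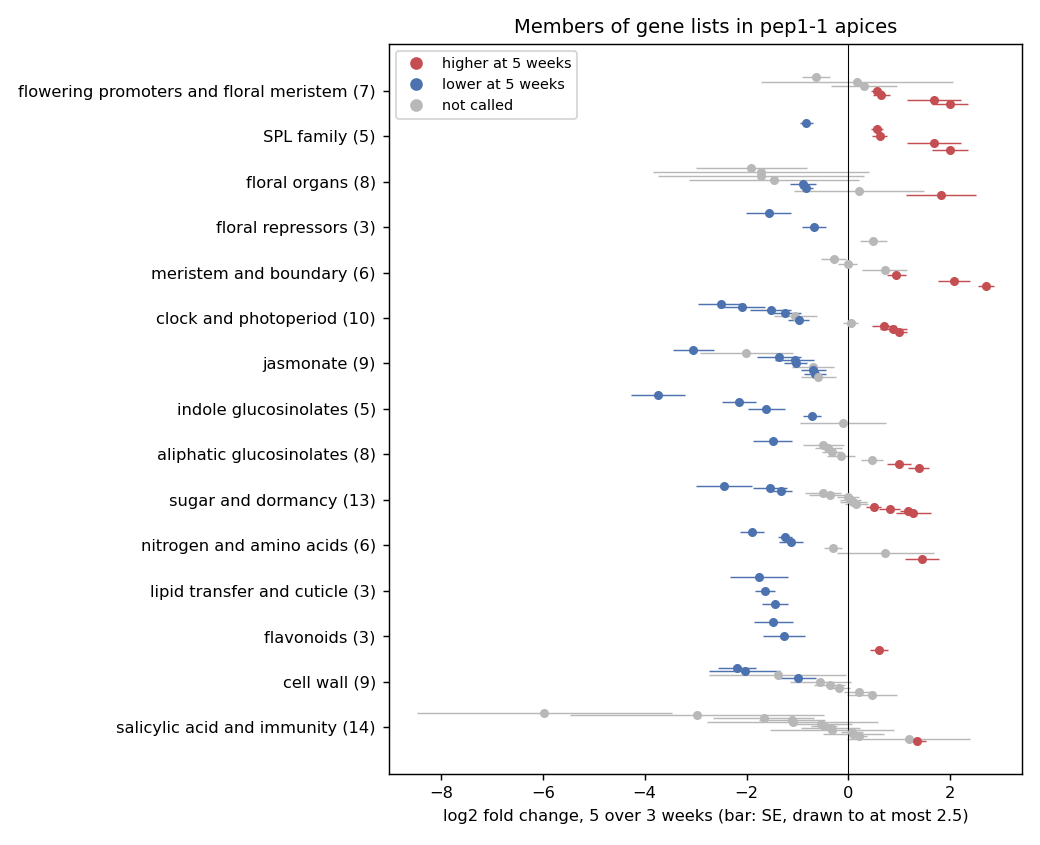
Each point is a tested member of a gene list (number of tested members in brackets) at its log2 fold change, 5 over 3 weeks, with its SE as a bar drawn to at most 2.5. Jasmonate, indole glucosinolate and lipid transfer and cuticle members that changed (blue) were all lower at 5 weeks, while flowering promoters and meristem members that changed (red) were all higher; the widest bars belong to genes with few or 0 counts at 5 weeks, such as PR2.

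Jasmonate genes that changed were all lower at 5 weeks: 6 of 9 tested members fell, against 20.3% of named genes, 0 rose and 3 were not called, and the median change was -1.04. LOX2 (Aa_G49590h1), the chloroplast lipoxygenase of jasmonate synthesis, stood at 2.16, 4.16 and 2.45 CPM at 5 weeks and 17.0, 19.3 and 33.2 CPM at 3 weeks. The groups were far apart (-3.05 ± 0.41, edgeR adjusted p = 7.43e-05), and in eop055 LOX2 gave 0.28, a difference that was called (edgeR adjusted p = 0.000935). LOX2 was chosen for the size of its fall, its lack of overlap and the size of this difference, so none is independent evidence. Of the 9 jasmonate members 1, LOX2, had a called difference, against 28% of named genes and 10.6% of all genes. JAZ9 (Aa_G68580h1), a repressor protein that jasmonate removes, stood at 47.3, 48.7 and 80.1 CPM at 5 weeks and 96.6, 112 and 152 CPM at 3 weeks. It fell by 1.04 ± 0.23 without overlap (edgeR adjusted p = 0.00343), and the call was just lost when only these 6 libraries were fitted (0.0519). In eop055 JAZ9 fell by 0.94 (edgeR adjusted p = 0.00878), and no difference was called (edgeR adjusted p = 0.915). Replicate 3 was the highest library at each age for JAZ9, OPR3, JAZ1, JAZ6, JAZ10 and MYC2.

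LOX3, OPR3, JAZ6 and JAZ10 fell by 1.36, 0.68, 1.05 and 0.65, each with a call that 4 or more alternatives removed. JAZ6 stood at 5.41, 6.53 and 15.1 CPM at 5 weeks and 13.7, 18.6 and 22.9 CPM at 3 weeks, so that its groups overlapped, and its fall was 1.64 without replicate 3 at 5 weeks. The transcription factor MYC2 (-0.59), LOX4 (-2.00) and JAZ1 (-0.69) were not called. ST2A, a sulfotransferase that acts on hydroxyjasmonate, was outside the list and fell by 2.75, with 0.90 ± 0.28 CPM at 5 weeks and 6.06 ± 2.80 CPM at 3 weeks (SD, n = 3 each).

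Glucosinolates, sulfur-rich defence compounds, are made in an indole and an aliphatic branch, and the counts of the branches were not tested against each other. Of 5 indole members 4 fell, 0 rose and 1, the regulator MYB51 (-0.11), was not called, with a median change of -1.61, where 20.3% of named genes fell. CYP79B2 (Aa_G486300h1) and CYP79B3 (Aa_G407280h1) convert tryptophan to its oxime. CYP79B2 stood at 3.69, 3.86 and 7.87 CPM at 5 weeks and 11.2, 15.4 and 19.5 CPM at 3 weeks, and CYP79B3 at 0.13, 0 and 0.26 CPM at 5 weeks and 1.31, 2.49 and 1.91 CPM at 3 weeks. Neither overlapped, as for 52.2% of all genes. CYP79B2 and CYP79B3 fell by 1.61 and 3.74 (edgeR adjusted p = 0.00321 and 6.68e-06), CYP79B3 by 4.46 without replicate 3 at 5 weeks. The sulfotransferase SOT16 fell by 2.15 and CYP83B1, which takes the oxime further, by 0.70, a call that was lost when only these 6 libraries were fitted (0.0634).

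Of 8 aliphatic members 2 rose, 1 fell and 5 were not called, with a median change of -0.23. Among all named genes 12.2% rose and 20.3% fell. MYB28 (Aa_G606850h1), the main activator of the aliphatic branch, stood at 44.0, 48.1 and 58.0 CPM at 5 weeks and 21.0, 17.5 and 18.9 CPM at 3 weeks, a rise of 1.39 ± 0.20 without overlap (edgeR adjusted p = 0.000104). GS-OX1, which oxidises the side chain, rose by 1.00, whereas CYP79F1, which starts the aliphatic core, fell by 1.48 to 0.40 ± 0.21 CPM at 5 weeks, against 1.15 ± 0.15 CPM at 3 weeks. MYB29 (-0.39), CYP83A1 (-0.49), SOT18 (-0.31), UGT74C1 (-0.14) and IMD1 (0.47) were not called. In eop055 MYB28 fell by 1.43, and the test called a difference between genotypes for 8 of the 8 members, against 28% of named genes and 10.6% of all genes. The names come from lists of genes that differ between these genotypes, so this count is not independent evidence.

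Of 14 tested genes of salicylic acid signalling and immunity, 1 rose, 0 fell and 13 were not called, with a median change of -0.41. The lack of a call does not show that a gene was unchanged. PR1, with 0 counts at 5 weeks and 3 at 3 weeks, and WRKY48, with 1 and 3, had almost no reads. WRKY11 (-0.48) and WRKY46 (1.19) were among the uncalled genes that other fits called. Among all named genes 12.2% rose and 20.3% fell, the shares to set beside each list count in this paragraph. The riser was WRKY54 (Aa_G281250h1), a negative regulator of salicylic acid responses, with 12.7, 14.4 and 8.75 CPM at 5 weeks and 5.76, 4.77 and 3.58 CPM at 3 weeks (1.36 ± 0.18, edgeR adjusted p = 2.35e-06). PR2, a glucanase induced by pathogens, had 0 counts over the 5-week libraries and 27 over the 3-week libraries. It was at least 7.67-fold lower at 5 weeks when the 5-week group is set to 3 counts over the group, and edgeR did not call it (adjusted p = 0.257), while DESeq2 and a fit of the 12 apex libraries did. Of 3 chitinases 1 fell: ChiC had 1 count at 5 weeks and 58 at 3 weeks, or a ratio of 0.0202 (95% interval 0.000504 to 0.117, counting error only). The fitted change was -5.19, or -7.04 without replicate 1 at 5 weeks, which held the only read. Of 7 ethylene genes 1 fell, the receptor ERS2, at 16.3 ± 0.89 CPM at 5 weeks and 26.4 ± 1.61 CPM at 3 weeks (SD, n = 3 each).

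Hormone lists held few members, and among all named genes 12.2% rose and 20.3% fell. GA3OX1 (Aa_G112460h1), which makes active gibberellin, stood at 40.8, 29.2 and 39.5 CPM at 5 weeks and 15.1, 17.7 and 16.8 CPM at 3 weeks. All 5-week libraries were above the 3-week ones (1.15 ± 0.17, edgeR adjusted p = 2.37e-05), and the other 3 gibberellin genes, GA20OX3, GA2OX2 and GA2OX6, were not called. GA20OX3 averaged only 0.23 CPM at 5 weeks and 0.18 CPM at 3 weeks, and GA2OX6 (-1.25) was called lower in 3 alternatives. GH3.3 (Aa_G288640h1), which conjugates auxin to amino acids, stood at 11.4, 15.2 and 13.2 CPM at 5 weeks and 31.4, 34.7 and 29.6 CPM at 3 weeks and fell by 1.27 ± 0.15 (edgeR adjusted p = 7.60e-07).

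Of the other auxin genes PILS5 rose by 0.51, a call lost when any of 3 libraries was left out, and PILS3 (0.07) was not called. LOG5, which activates cytokinin, fell by 0.85 to 2.08 ± 0.33 CPM at 5 weeks, against 3.84 ± 0.87 CPM at 3 weeks, and the cytokinin response gene ARR5 (0.42) was not called. In the abscisic acid and cold list 1 of 6 fell, where 20.3% of named genes fell. That gene, RAB18, on 10 counts at 5 weeks and 27 at 3 weeks, lost its call in 10 of 13 alternatives.

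Of 6 tested nitrogen and amino acid genes 1 rose, 3 fell and 2 were not called, with a median change of -0.71. Among all named genes 12.2% rose and 20.3% fell. The nitrate reductase NIA2 (Aa_G525030h1) stood at 42.4, 42.9 and 41.5 CPM at 5 weeks and 111, 103 and 86.4 CPM at 3 weeks, and NIA1 (Aa_G121580h1) at 12, 10.4 and 14.6 CPM at 5 weeks and 50.03, 54.4 and 34.1 CPM at 3 weeks. Both were lower in every 5-week library, by 1.24 ± 0.14 and 1.90 ± 0.23 (edgeR adjusted p = 1.91e-06 and 2.84e-05). Such a lack of overlap, in either direction, was seen in 52.2% of all genes. The asparaginase ASPGB1 fell by 1.12, while AK3, an aspartate kinase, rose by 1.45 to 13.0, 12.7 and 30.9 CPM at 5 weeks, against 6.22, 5.87 and 8.26 CPM at 3 weeks. The AK3 call was lost when only these 6 libraries were fitted (0.0628).

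Sugar and dormancy genes showed no common direction: of 13 tested members 4 rose, 3 fell and 6 were not called, with a median of 0.05. Among all named genes 12.2% rose and 20.3% fell. The sucrose exporter SWEET12 (Aa_G143150h1) stood at 63.3, 42.3 and 52.5 CPM at 5 weeks and 27.1, 24.6 and 19.2 CPM at 3 weeks, a rise of 1.17 ± 0.14 without overlap (edgeR adjusted p = 9.56e-06). SWEET4 rose by 1.28 and SWEET1 fell by 1.54. Of the trehalose phosphate phosphatases TPPH rose by 0.81, TPPG fell by 1.33, and TPPA and TPPF were not called. GBSS1, which makes amylose, rose by 0.50, and DRM2 was the third gene to fall.

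The 2 iron genes moved apart. FER1, the ferritin that stores iron, stood at 55.7 ± 6.17 CPM at 5 weeks and 23.0 ± 4.58 CPM at 3 weeks, and BTS, a ligase that restrains iron uptake, at 60.1 ± 4.08 CPM at 5 weeks and 103 ± 6.29 CPM at 3 weeks (SD, n = 3 each). The changes were 1.27 for FER1 and -0.77 for BTS in pep1-1, against 1.27 and -0.60 in eop055, with no difference called. Of 9 cell wall genes 3 fell, 0 rose and 6 were not called, where 20.3% of named genes fell and 12.2% rose. XTH24 fell by 2.19, XTH33 fell by 2.04 and the expansin EXPA8 fell by 1.00. The XTH33 and EXPA8 calls were lost without most single libraries, and XTH33 fell by 3.05 without replicate 1 at 5 weeks.

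All 3 tested surface lipid genes were called lower, where 20.3% of named genes fell, and 1 of the calls was unstable. CER1 (Aa_G106350h1), which makes wax alkanes, stood at 19.3, 28.9 and 27.5 CPM at 5 weeks and 74.6, 73.6 and 84.4 CPM at 3 weeks and fell by 1.63 ± 0.20 (edgeR adjusted p = 2.46e-05). The cutin enzyme GPAT6 fell by 1.43 and the lipid transfer protein LTP4 by 1.76, and the LTP4 call was lost when any single library was left out (adjusted p up to 0.0829). Among flavonoid genes FLS1, the flavonol synthase, rose by 0.61, while MYB11 and MYB111, activators of flavonol genes, fell by 1.48 and 1.26. The FLS1 call was lost without replicate 1 at 5 weeks or replicate 3 at 3 weeks (adjusted p up to 0.0586), and the MYB111 call when any of 4 libraries was left out (up to 0.123). Of 2 senescence genes SAG21 fell by 1.75, a call lost without the same 2 libraries as for FLS1 (up to 0.0612), and NAP had 0 counts at either age. The heat shock gene HSP90.1 (0.86) was not called.

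GL3 (Aa_G547900h1), a bHLH factor that starts trichome formation, was the only trichome marker among the named genes. It stood at 20.5, 21.0 and 24.8 CPM at 5 weeks and 61.9, 62.8 and 62.5 CPM at 3 weeks. The 5-week libraries were all near 22 CPM and the 3-week libraries near 62 CPM, a change of -1.5 ± 0.14 (edgeR adjusted p = 9.20e-08), whereas eop055 gave 0.36 and the difference was called (edgeR adjusted p = 3.05e-06). In whole apices a smaller number of cells of a type and less RNA per cell cannot be told apart. The vascular marker FLA12 (0.28) was not called, and no photosynthesis marker of leaves was among the named genes.

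Genes rich in leaves were chosen in eop055 libraries alone, and their summed level is not a measured share of leaf tissue. Leaf-rich genes, at least 8-fold higher in eop055 leaves than in both groups of eop055 apices and at 5 CPM or more, numbered 1418. Their summed level was 31846, 31268 and 29289.9 CPM at 5 weeks and 32047, 32039.5 and 33833 CPM at 3 weeks in pep1-1 apices, against a mean of 499640 CPM in pep1-1 leaves. Each 5-week sum was below each 3-week sum, with a log2 ratio of -0.08. Of the members 100 (7.05%) were higher at 5 weeks and 286 (20.2%) lower, with a median of -0.22, against 18.7% higher, 20.3% lower and a median of 0.01 over all genes. Genes at least 16-fold richer in leaves gave a log2 ratio of -0.29.

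Leaf-rich genes by this measure included LOX2, LOX3, ST2A, TEM2, CYP79B2, CYP79B3, SOT16, CYP79F1, NIA2, PUP17, XTH24, XTH33, LTP4, SAG21, RAB18 and the gene without a locus Aa_G593160h1 among those that fell, and CCA1, COL1, AK3 and AT4G22460 among those that rose. The genes listed here were picked among called genes, so their balance does not give the share that fell. Of all 436 leaf-rich genes with a locus, 19 were called higher at 5 weeks and 56 lower, beside 168 and 280 of all 1381 named genes. The part of leaf material in the changes of the listed genes was not tested. The 836 apex-rich genes, ZPR2, SPL8, SPL9, GL3, GH3.3, LOG5, CER1 and GPAT6 among them, summed to 52348, 50956 and 51687 CPM at 5 weeks and 56636, 58567 and 55963 CPM at 3 weeks, against 3578 CPM in pep1-1 leaves. Of these, 182 (21.8%) were higher and 277 (33.1%) lower, and the log2 ratio of the sums was -0.14.

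**Figure D4:**
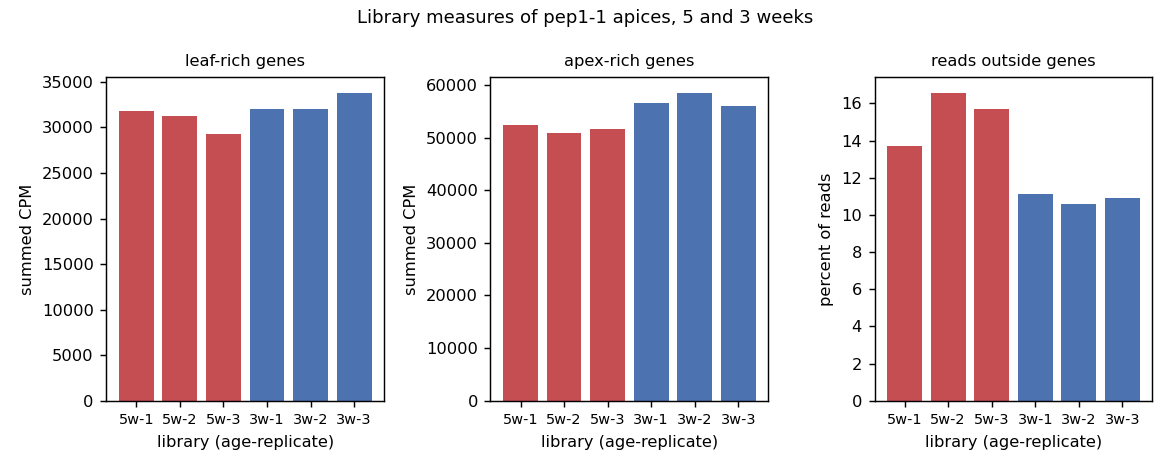
Bars give the summed CPM of 1418 leaf-rich genes, the summed CPM of 836 apex-rich genes and the percent of reads outside genes in each pep1-1 apex library, with the 5-week libraries (5w, red) left of the 3-week libraries (3w, blue). The sums of leaf-rich genes lie between 29289.9 and 33833 CPM in all 6 libraries, and reads outside genes take 13.7 to 16.6% at 5 weeks and 10.6 to 11.1% at 3 weeks.

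The age change of pep1-1 apices was set beside that of eop055 apices, which share no library with it. In eop055 7643 genes (35.9%) changed, 3521 higher (16.5%) and 4122 lower (19.4%). Genes called in the same direction in both genotypes numbered 4329, which is 52.3% of the pep1-1 calls and 56.6% of the eop055 calls, and 311 were called in opposite directions. Among all pep1-1 calls 84.4% had the same sign in eop055, and the log2 changes correlated at a Pearson r of 0.60 across genes, which are not independent replicates. The test of the difference called 1491 (18%) of the genes called in pep1-1.

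Changes called in both genotypes included those of CYP79C2, GSTF3, IAA14, NRT2.3, XTH24 and FAF2, which were -4.62, -2.74, -2.60, -2.48, -2.19 and 2.08 in pep1-1, against -6.95, -4.52, -3.05, -2.96, -2.00 and 2.97 in eop055. For these 6 genes no difference was called, which does not show that their changes were equal. SPL5, SPL9, SPL10 and FD rose in both genotypes but by less in pep1-1: the changes were 1.99, 0.57, 0.62 and 0.65 in pep1-1, against 3.70, 1.42, 1.71 and 1.52 in eop055, and each difference was called (edgeR adjusted p = 0.0235, 0.00125, 0.000973 and 0.0174). LFY gave -0.64 in pep1-1 and 2.43 in eop055, and that difference was called as well (edgeR adjusted p = 2.96e-05).

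Other differences were called in genes whose changes had opposite signs. GA3OX1, SWEET12, WRKY54 and AK3 gave 1.15, 1.17, 1.36 and 1.45 in pep1-1, against -0.55, -0.86, -0.30 and -1.14 in eop055. ASPGB1, LOG5, GH3.3 and CYP83B1 gave -1.12, -0.85, -1.27 and -0.70 in pep1-1, against 1.85, 1.62, 0.34 and 0.78 in eop055. The eop055 changes of WRKY54, AK3 and GH3.3 were themselves not called (edgeR adjusted p = 0.224, 0.0597 and 0.0696). AP1, with 1 count at each age in pep1-1, changed by 7.46 in eop055, where it averaged 5.96 CPM at 5 weeks and 0.02 CPM at 3 weeks, and the difference between genotypes was not called (edgeR adjusted p = 0.210).

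**Figure D5:**
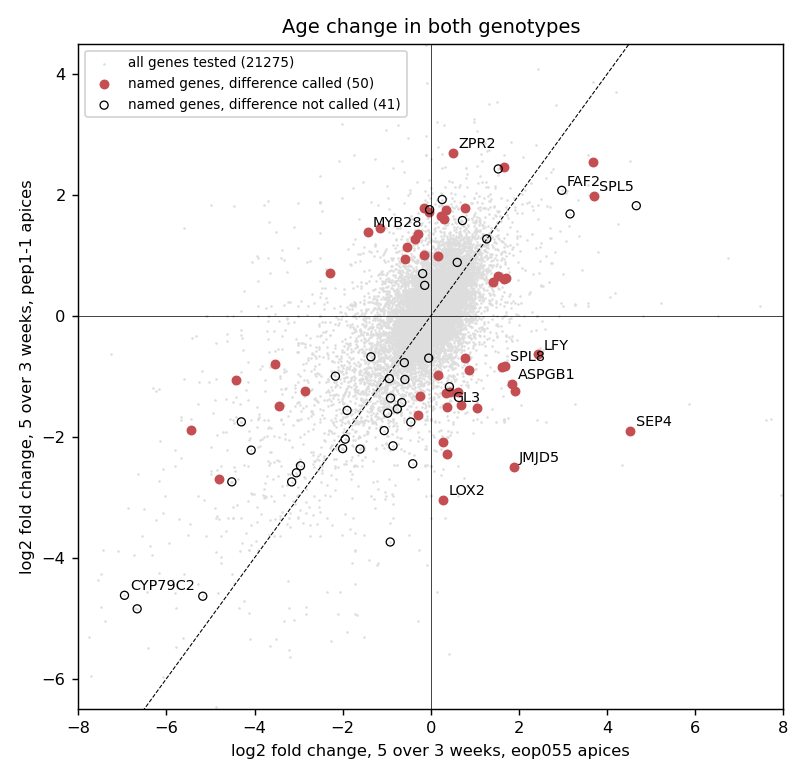
The log2 fold change, 5 over 3 weeks, in pep1-1 apices (vertical axis) is plotted against that in eop055 apices (horizontal axis) for all 21275 genes, with the dashed line marking equal change and large points the named genes. Of 91 named genes, 50 (red) had a called difference between genotypes, such as ZPR2 above the line and SPL8, LFY and JMJD5 below it, and 41 (open) did not, such as FAF2 and CYP79C2.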

How the data were processed

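Per the labels' protocols, apices were dissected, poly(A) RNA was extracted and strand-specific libraries gave single-end reads 100 bases long. The authors deposited raw read counts per gene, for which DESeq, DESeq2, STAR and HTSeq 0.5.4p1 appear in the submitters' processing notes. The authors' deposited lists of genes differing between genotypes also hold normalised mean signals, fold ratios, log2 fold changes and adjusted p-values, per the file headers. Those values were not used, and the lists served only to pair gene identifiers with Arabidopsis loci. The labels and headers state no genome build, annotation or strand setting, so counts of overlapping, antisense or near-identical genes are uncertain, and no sequences or coordinates were used.

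From 34220 genes, with 5 summary entries left out, filterByExpr with the 6 groups kept 21275. The 18 libraries were scaled by TMM (factors 1.23 to 1.27 at 5 weeks and 1.15 at 3 weeks in pep1-1 apices) and fitted as 6 group means by edgeR 4.0.16 under R 4.3.3, with limma 3.58.1 loaded (glmQLFit with robust dispersions, glmQLFTest), with a biological coefficient of variation of 9.65%. The contrasts were 5 minus 3 weeks in each genotype and the difference between genotypes, with Benjamini-Hochberg adjustment over all genes and a threshold of 0.05. The SE of a log2 change is its size divided by the square root of the F statistic. It therefore rests on the spread estimated from all 18 libraries, not only on the groups compared. No replicate was a copy of another: between pairs of them the mean chi-square was 1.90 to 4.89 per gene. At 7987096 to 14132723 counts, genes near 1 CPM rest on few reads. Genes with at most 3 counts in a group were given a 95% Clopper-Pearson interval, or a bound with a floor of 3 counts over the group. The test was also run on simulated counts with few changed genes, unlike these data, and no result here rests on that run.

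The members and gene lists were chosen with earlier results of these data known. Named genes were the 12 largest rises and falls among called genes with a locus, at least 5 CPM at the higher age and no overlap, every called member of the flowering, SPL, floral organ, repressor, clock and meristem lists, at most 4 called genes from any further list, the 2 largest rises and falls without a locus, and the 5 largest differences between genotypes in each direction. SWEET12, TPPH, GBSS1, OPR3 and JAZ10 fall outside this rule and were added after their values were seen. The results were recomputed without each library in turn, with an adjusted p of 0.01 or a 2-fold minimum as the threshold, with DESeq2 1.42.0 in place of edgeR, and with the replicate number as a block term. Fits of the 12 apex libraries or of only the groups compared, upper quartile or RLE scaling, and a low-count filter that was dropped or set to 50 counts in 3 libraries were also tried. Figures were drawn with matplotlib 3.10.9.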

Additional observations from a re-analysis of the deposited data

Results flagged for a closer look

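For 50 of the 91 named genes the age change in pep1-1 apices differed from that in eop055 apices in edgeR's test of the difference, at Benjamini-Hochberg adjusted p of 3.82e-09 to 0.0378. The values below are log2 changes in pep1-1 minus those in eop055. In 29 of the 50 the changes had opposite signs in the genotypes, counted whether or not each change was called. Some of these changes were themselves not called. The eop055 changes of AT5G43910, WRKY12 and LOX2 were -0.05, -0.16 and 0.28 (edgeR adjusted p = 0.902, 0.579 and 0.460). The pep1-1 change of LFY was -0.64 (edgeR adjusted p = 0.0711). The 91 include 10 genes named for the size of this very difference, and the names come from lists of genes that differ between these genotypes, so the count is partly fixed by the choice. The share was 28% over all named genes tested and 10.6% over all genes.

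The difference was positive for 23 genes. Glucosinolate, amino acid and nitrogen genes were IPMI2 (2.99), MYB28 (2.82), DAAR1 (2.73), AK3 (2.60), CYP79F1 (1.95), NIA2 (1.62) and GS-OX1 (1.15). Defence genes were ALPHA DOX2 (3.57), the chitinase AT2G43590 (3.35), PR4 (2.1) and WRKY54 (1.65). Regulatory genes were ZPR2 (2.20), WRKY12 (1.95), ZPR1 (1.54) and RL4 (1.41), LHY (0.83) belongs to the clock, and GA3OX1 (1.70) and SWEET4 (1.65) act in gibberellin synthesis and sugar transport. The loci AT5G43910 (1.76), AT4G39830 (1.41), AT2G21560 (1.32) and AT3G53830 (1.00) and the gene Aa_G688870h1 (0.79) completed the group. ALPHA DOX2, an alpha-dioxygenase gene, fell in both genotypes, by 1.88 in pep1-1 and by 5.45 in eop055.

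The difference was negative for 27 genes. Flowering and floral genes were SEP4 (-6.43), LFY (-3.07), SPL8 (-2.52), CRC (-1.74), SPL5 (-1.71), SPL10 (-1.09), FD (-0.87) and SPL9 (-0.85). Clock genes other than LHY were JMJD5 (-4.38), FKF1 (-2.57), ELF4 (-2.38), COR28 (-1.88) and LUX (-1.14). Metabolic genes were LOX2 (-3.33), ASPGB1 (-2.98), ATBBE16 (-2.65), CYP83B1 (-1.48), CER1 (-1.35), TPPG (-1.08) and FLS1 (-1.05). The remaining genes were AT5G02230 (-3.16), LOG5 (-2.47), MYB11 (-2.16), GL3 (-1.86), MYB111 (-1.70), GH3.3 (-1.61) and Aa_G277510h1 (-1.14). SEP4 rests on 2 counts at 5 weeks and 10 at 3 weeks in pep1-1, against means of 5.18 CPM at 5 weeks and 0.21 CPM at 3 weeks in eop055.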

How the results depend on the processing

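The number of genes called in pep1-1 apices (8285) was 5649 at an adjusted p of 0.01 and 9217 in a fit of the 12 apex libraries, the extremes of all alternatives but the 2-fold minimum. Leaving out single libraries gave 6737 to 7953 in pep1-1, 6211 to 6743 in eop055 and 1515 to 2230 for the difference. A 2-fold minimum gave 1587 in pep1-1, 1781 in eop055 and 757 for the difference, and an adjusted p of 0.01 gave 1114 for the difference. The log2 ratio of summed leaf-rich genes was -0.29 at 16-fold, and -0.11 to -0.05 without single libraries; that of apex-rich genes was -0.18 at 4-fold, and -0.16 to -0.12 without single libraries. The omissions for these sums were chosen after seeing the data. No named call changed direction, but the balance of calls did. Rises made up 47.9% of calls, against 40.8% with RLE, 40.2% with DESeq2 and 53.1% with upper quartile scaling. With upper quartile scaling 4419 genes were higher and 3896 lower in pep1-1, and 3962 higher and 3758 lower in eop055. The median change over all genes was 0.01, against -0.03 with RLE.

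Of 87 named calls, 67 passed in every alternative that applies to single genes and 20 were lost in at least 1: 8 to 13 without each single library, 6 with only the groups compared, 5 without a filter and 3 or fewer in each other alternative. Deviations of same-numbered libraries correlated at 0.04, -0.03 and 0.01, and those of other pairs at -0.05 to 0.04. The highest value was that of replicate 1 at both ages. All were small, so this check cannot show whether the replicate numbers pair the libraries. A replicate block gave 8322, 7697 and 2340 calls. It removed the calls of AGL6, JAZ6 and RAB18 among the 87, and that of OPR3, which is outside them. Genes below about 1 CPM are limited by depth. No explanation for lost calls was tested.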
